A study of Rattus norvegicus with 24 samples.

Results

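Cd36 and Slc27a6 are the 2 genes of long-chain fatty acid uptake examined here in the carotid bodies (CBs) of normotensive and spontaneously hypertensive rats, among 32623 genes with deposited counts. They were selected on their strain difference: their symbols were read in the part of the study's table of the strain comparison used here, which pairs 1273 identifiers with a symbol and holds only genes higher in the hypertensive strain. Cd36 was paired with 1 identifier (ENSRNOG00000040108) and Slc27a6 with 1 (ENSRNOG00000058193). Because the strain contrast chose them, their strain difference is given as a description and without a test, and only measures the choice did not use (side, side by strain, and variation among rats of one strain) were tested.

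The CB is a small chemosensory organ beside the carotid bifurcation, built of oxygen-sensing glomus cells, supporting cells and a dense capillary bed. Left and right CBs of 6 WKY/NHsd and 6 SHR/NHsd rats, inbred strains with normal and with raised blood pressure, were sequenced separately as polyadenylated RNA, giving 24 libraries from 12 rats. All rats were males of 12 to 14 weeks with no treatment or transgene named in the labels, and all were perfused with cold saline through the heart before dissection. The strains differ throughout their genomes, so blood pressure and genetic background cannot be told apart.

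Cells take up long-chain fatty acids with the help of membrane proteins. Cd36 (fatty acid translocase) is a scavenger receptor that binds long-chain fatty acids and oxidized lipoproteins, and it is known from capillary endothelium, adipocytes, macrophages, platelets and striated muscle. Slc27a6 (FATP6) is a fatty acid transport protein of the Slc27 family, known mainly from the heart, and proteins of this family also couple fatty acids to coenzyme A. Some laboratory lines of the SH rat carry a rearranged Cd36 allele. Which allele these rats carried is not given in the labels and was not tested.

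The sequences upstream of both genes are shown because they lie just before the RefSeq starts of both transcripts, which were both higher in SH rats. They are the 250 bases before the start of each gene on assembly GRCr8, printed 5′ to 3′ on the gene's strand, at chr4:18246332-18246581 (+) for Cd36 and chr18:54238797-54239046 (+) for Slc27a6. Both genes were matched by symbol. The sequences are those of the reference assembly and were not read from these WKY and SH rats, whose alleles may differ. Capitals mark matches to the motifs described next.
Cd36: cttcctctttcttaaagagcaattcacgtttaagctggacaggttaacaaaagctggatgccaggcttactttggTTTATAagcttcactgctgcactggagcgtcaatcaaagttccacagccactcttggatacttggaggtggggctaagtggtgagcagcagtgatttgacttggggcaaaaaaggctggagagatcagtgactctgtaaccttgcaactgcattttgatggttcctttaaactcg
Slc27a6: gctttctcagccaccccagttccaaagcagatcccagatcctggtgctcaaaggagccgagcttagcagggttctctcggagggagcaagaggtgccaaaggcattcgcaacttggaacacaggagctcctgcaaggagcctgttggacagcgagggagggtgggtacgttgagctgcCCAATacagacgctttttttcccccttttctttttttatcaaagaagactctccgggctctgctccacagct
Common promoter motifs were searched on both strands, and their share is given over all 33469 promoters of this length. The TATA box motif, TATAAA, occurred once in Cd36, on the minus strand from position -175 relative to the gene start, and 12.9% of promoters held it. The CCAAT box, spelled by its own name, occurred once in Slc27a6, on the plus strand from position -72, and 34% of promoters held it. The GC box motif, GGGCGG, is held by 30.5% of promoters and had 0 matches in both windows. The core site of nuclear receptors, AGGTCA, is held by 14.1% of promoters and had 0 matches, and so had its direct repeat spaced by 1 base, which overlaps it (0.0508%). The capitals therefore mark a different motif in each gene.

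The libraries held 9198341 to 13655419 counts. Values are CPM, that is, counts divided by the size of the library after scaling with edgeR's TMM factors. They cover the 23 libraries of the study's table (12 WKY, 11 SHR) unless all 24 are named. The library left out, the right CB of SH rat 34, stands apart from the others. Its 6 glomus marker genes summed to 77.6 CPM, against 1228 to 2734 in the other 23. Among them, Dbh, which makes noradrenaline, had 17 counts, Agtr2 had 2, Sstr1 had 3 and Chgb had 31. Chga had 437 counts, against 4315 to 11171 in the others, and Ret had 137, against 242 to 950. Its TMM factor was 0.773, against 0.975 to 1.03 in the others. All 6 glomus genes had counts in this library and in the other 23. Results that rest on this library are given with and without it.

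Cd36 was higher in the CBs of SH rats on both sides. In the left CBs of WKY rats the lowest, median and highest Cd36 values were 8.22, 11.7 and 14.4 CPM (80 to 148 counts). In the right CBs of WKY rats they were 10.4, 11.8 and 15.4 CPM (99 to 149 counts). The WKY sides overlapped almost entirely. In the left CBs of SH rats they were 18.9, 28.8 and 31.7 CPM (179 to 395 counts). The 5 right CBs of SH rats had 27.1 CPM (rat 30), 27.3 (rat 31), 30.7 (rat 33), 26.7 (rat 36) and 40.9 (rat 37). Each of the 11 SHR libraries thus lay above each of the 12 WKY libraries, as the plot of the values by library shows. This separation in every library, with SHR higher, held for 132 of the 14258 genes tested (0.926%), but the strain contrast chose Cd36.

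Averaged over the sides of each rat (the left CB alone for SH rat 34), Cd36 was 12.0 ± 1.77 CPM in WKY and 28.6 ± 4.56 CPM in SH rats (SD, n = 6 rats each), a ratio of 2.39. The lowest SH rat had 1.58 times the level of the highest WKY rat. The fitted log2 fold change of Cd36, SHR over WKY with side as a covariate, was 1.26 (SE 0.1003). It was 1.21 in the left CBs alone and 1.29 in the right CBs alone. With all 24 libraries it was 1.44. In whole CBs, more cells of a type and more RNA per cell cannot be told apart.

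Slc27a6 was also higher in the CBs of SH rats, and WKY libraries held few counts of it. In the left CBs of WKY rats the lowest, median and highest values were 0.719, 1.38 and 2.04 CPM (7 to 21 counts). In the right CBs of WKY rats they were 0.397, 0.678 and 1.44 CPM (4 to 14 counts). All 12 WKY libraries were above 3 counts, which was taken as the floor. In the left CBs of SH rats they were 2.19, 3.23 and 5.05 CPM (21 to 55 counts). The 5 right CBs of SH rats had 5.61 CPM (rat 30), 1.96 (rat 31), 3.22 (rat 33), 4.41 (rat 36) and 8.40 (rat 37), from 27 to 78 counts. Of the 11 SHR libraries, 10 lay above all WKY libraries. The exception was the right CB of SH rat 31 at 1.96 CPM, just under the highest WKY library at 2.04 CPM.

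**Figure D1:**
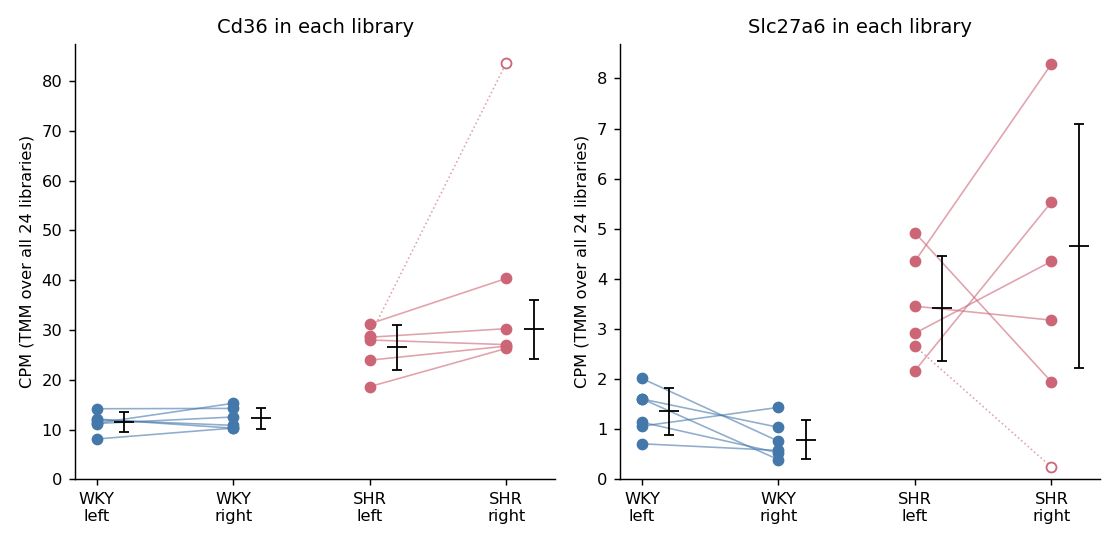
Cd36 (left panel) and Slc27a6 (right panel) in CPM, scaled over all 24 libraries, for each library by strain and side. Lines join the CBs of one rat, black marks give mean ± SD of the filled points, and the open point is the right CB of SH rat 34, the highest library for Cd36 (83.7 CPM) and the lowest for Slc27a6 (0.248 CPM). That Slc27a6 value is 2 counts, under the floor of 3.

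Averaged over the sides, Slc27a6 was 1.08 ± 0.299 CPM in WKY and 3.92 ± 1.29 CPM in SH rats (SD, n = 6 rats each), a ratio of 3.62. The 6 SH rats (2.68 to 6.41 CPM) did not overlap with the 6 WKY rats (0.652 to 1.40 CPM), and the same was true of Cd36. Such a separation of rats with SHR higher was found for 483 genes (3.39%), and again the contrast chose these genes. The fitted log2 fold change of Slc27a6 was 1.89 (SE 0.267), and 1.79 with all 24 libraries. It was 1.33 (SE 0.301) in the left CBs alone and 2.54 (SE 0.395) in the right CBs alone. Over all genes tested, 1459 (10.2%) were higher in SHR and 1404 (9.85%) lower (edgeR's quasi-likelihood test, adjusted p under 0.05), and these shares are given as background only.

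The genes differed in how much they varied among libraries of one strain. The coefficient of variation of Cd36 over libraries was 16.8% in WKY and 18.8% in SHR, where counting error alone would give 9.09% and 5.79%. For Slc27a6 it was 47.1% in WKY and 46.0% in SHR, against 30.3% and 15.6% from counting alone. Counting error was largest for Slc27a6 in WKY, at a mean of 10.9 counts.

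No difference of Cd36 between the left and the right CB passed the test across genes. In WKY rats the left CB had a log2 fold change over the right of -0.09 (SE 0.143, 95% confidence interval -0.39 to 0.21), and in SH rats of -0.17 (SE 0.140, -0.47 to 0.12). The adjusted p was 0.9997 in WKY and 0.875 in SHR (edgeR's quasi-likelihood test, Benjamini-Hochberg over all genes). Within rats, the right CB was higher in 8 of 11 rats, and the mean log2 ratio of left over right was -0.146 ± 0.242 (SD; exact permutation test flipping signs within rats, two-sided, p = 0.0732). With all 24 libraries the mean ratio was -0.264 over 12 rats (exact sign-flip permutation test, p = 0.0356), and this value rests on the library of SH rat 34.

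No difference of Slc27a6 between sides passed the test across genes either. In WKY rats its left CB was higher in 5 of 6 rats. The left and right CBs had 1.61 and 0.397 CPM in rat 32, 1.62 and 1.05 in rat 33, and 1.07 and 1.44 in rat 34. They had 2.04 and 0.771 CPM in rat 36, 0.719 and 0.585 in rat 37, and 1.15 and 0.535 in rat 41. Rat 34 was the only WKY rat with the right CB higher. The log2 fold change of left over right was 0.78 in WKY (SE 0.364, 95% confidence interval 0.01 to 1.55; edgeR unadjusted p = 0.0466, adjusted p = 0.9997). With the rat as a block the interval was -0.02 to 1.61 (edgeR unadjusted p = 0.0564). The exact sign-flip permutation test over the 6 rats gave p = 0.0938, where 0.0312 is the smallest p possible.

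In SH rats, Slc27a6 was higher on the left in 2 of 5 rats and higher on the right in 3. The left and right CBs had 2.19 and 5.61 CPM in rat 30, 5.05 and 1.96 in rat 31, and 3.50 and 3.22 in rat 33. They had 2.95 and 4.41 CPM in rat 36 and 4.41 and 8.40 in rat 37. Rats 30 and 31 thus lay at opposite ends. The log2 fold change of left over right in SHR was -0.42 (SE 0.324, 95% confidence interval -1.10 to 0.26; edgeR adjusted p = 0.871). The exact sign-flip test over the 5 rats gave p = 0.625, and 5 rats cannot go below 0.0625. With all 24 libraries the mean log2 ratio within SH rats turned from -0.275 to 0.338 (exact sign-flip permutation test, p = 0.75). That change rests on the right CB of SH rat 34, with 2 counts of Slc27a6, under the floor of 3.

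Whether the strain difference itself differed between sides was tested as an interaction, which passed for neither gene after adjustment. The interaction of side and strain (left over right in SHR minus that in WKY) was -1.21 on the log2 scale (SE 0.497, 95% confidence interval -2.23 to -0.19; edgeR unadjusted p = 0.0219, adjusted p = 0.999). With the rat as a random block in limma's voom it was -1.02, with an interval of -2.13 to 0.08 (limma unadjusted p = 0.067). For Cd36 it was -0.09 (SE 0.204, -0.50 to 0.33). The within-rat ratios of Slc27a6 differed between the strains by -1.11 (two-sided exact permutation test, p = 0.0844). Of 14258 genes, 0 (0%) had an adjusted p under 0.05 for the interaction by edgeR, 438 (3.07%) an unadjusted p under 0.05, and DESeq2 called 0. Between sides edgeR called 0 of 14238 genes (0%) in WKY, with 284 (1.99%) unadjusted, and 0 of 14200 (0%) in SHR, with 781 (5.5%) unadjusted. DESeq2 called 0 in each strain.

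**Figure D2:**
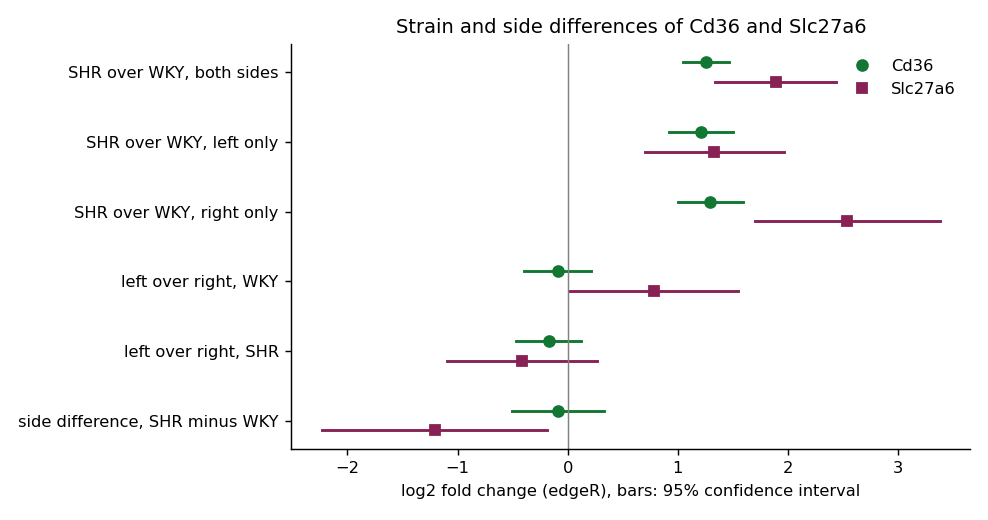
Fitted log2 fold changes of Cd36 (circles) and Slc27a6 (squares) with 95% confidence intervals for the strain difference, the side difference in each strain and their interaction. The strain values chose the genes and carry no test, and Slc27a6 reads 1.33 on the left and 2.54 on the right where Cd36 reads 1.21 and 1.29.

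The right CB of SH rat 34 separated the genes. Cd36 had 676 counts there, or 83.7 CPM with all 24 libraries scaled together, against 8.12 to 40.4 CPM in the other 23. The left CB of the same rat had 28.8 CPM, so the right was 2.90 times higher. Slc27a6 had 2 counts, or 0.248 CPM, under the 0.395 to 8.29 CPM of the others, and the left CB of that rat had 24 counts, or 2.66 CPM. As CPM of the library total, without TMM, Cd36 had 64.7 CPM (95% exact interval 59.9 to 69.7) and Slc27a6 0.191 CPM (0.0232 to 0.691), intervals that cover counting error only. Cd36 was therefore at its highest, and Slc27a6 at its lowest, in the library with the lowest sum of glomus markers. The 2 counts of Slc27a6 lie under the floor of 3. Their interval takes in the lowest of the other libraries (0.401 CPM of the total), so the place of Slc27a6 as lowest is not settled.

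Beside these values, the marker lists of other cell types were read in that library. The 5 paired adipocyte genes of a list of 11 summed to 455 CPM there, against 54.6 to 142.5 CPM in the others, with 0 of the 5 at 0. Fabp4, the adipocyte fatty acid binding protein, made up most of that sum, with 3112 counts (385 CPM) against 24 to 539 counts in the other libraries. By counts, the other 4 genes were not above the other libraries. Adipoq, the adipocyte hormone adiponectin, had 51 counts against 0 to 87, Cfd, a complement factor of adipocytes, 9 against 5 to 62, and Trarg1, a regulator of glucose transport, 169 against 66 to 305. Lpl had 336 counts, below the 356 to 804 of the others. After scaling it stood at 41.6 CPM, beside means of 43.6 CPM in WKY and 56.6 CPM in SH rats. Its lower count therefore does not show a level below every other library. Of the fatty acid lists described below, Pmp2 had 576 counts there against 10 to 206, Klf15 1189 against 107 to 473, and Ces1d 212 against 19 to 133. Slc43a3 had 775 against 257 to 773. Apobr (48 against 52 to 114) and Cpt1b (110 against 114 to 308) had fewer counts than the others. After scaling, Apobr stood at 5.94 CPM, beside means of 7.09 CPM in WKY and 9.16 CPM in SH rats. Cpt1b stood at 13.6 CPM, beside 19.1 and 23.4 CPM. For these genes too, the lower count does not show a level below every other library. The 8 paired endothelial genes summed to 356 CPM, below the 514 to 876 CPM of the others. The 11 macrophage genes summed to 573 CPM, within their 448 to 987 CPM. The part of these cell types in the Cd36 value and in that of Slc27a6 was not tested.

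**Figure D3:**
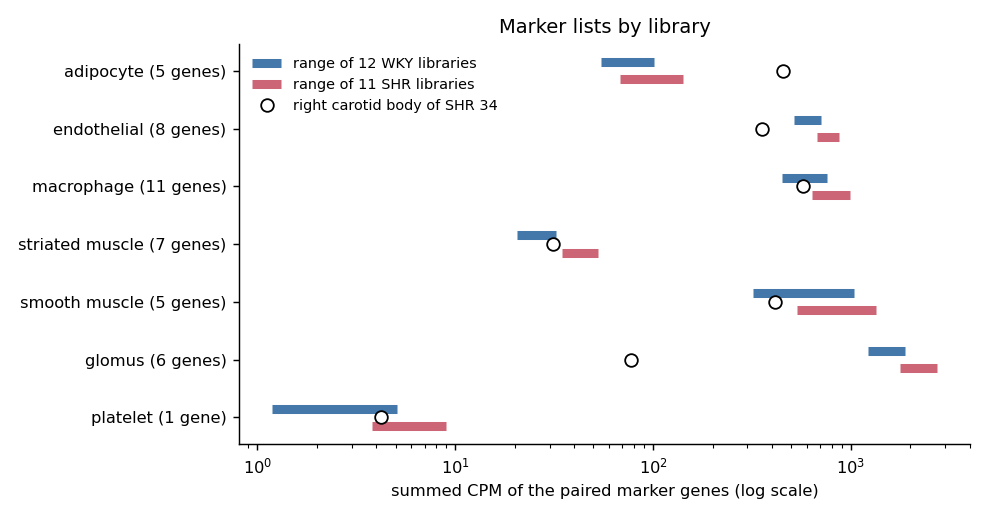
Summed CPM of the paired genes of each marker list, on a log axis. Bars give the range of the 12 WKY and of the 11 other SHR libraries, and the open circle gives the right CB of SH rat 34, which lies above the bars for adipocyte genes (455 CPM) and below them for endothelial (356 CPM) and glomus genes (77.6 CPM).

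The marker lists of cell types known to carry Cd36, and of other cells of the CB, were also summed by strain in the 23 libraries. Symbols exist here only for genes higher in SHR, so the paired genes were drawn from that side of the contrast, and their strain values are a description with no test. Endothelial sums ran from 514 to 706 CPM in WKY and from 673 to 876 CPM in SHR over 8 genes. Macrophage sums ran from 448 to 760 and from 638 to 987 CPM over 11 genes, and adipocyte sums from 54.6 to 101 and from 68.4 to 143 CPM over 5 genes. The ranges of these 3 lists overlapped between strains. Striated muscle sums ran from 20.4 to 32.5 and from 34.7 to 52.8 CPM over 7 genes, without overlap. Smooth muscle sums ran from 321 to 1034 and from 532 to 1343 CPM over 5 genes, and glomus sums from 1228 to 1889 and from 1763 to 2734 CPM over 6 genes. Of the platelet genes Pf4 alone was paired (1.19 to 5.07 and 3.78 to 8.94 CPM). The part of these cells in the strain difference of Cd36 and Slc27a6 was not tested.

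Of 68 genes of fatty acid handling in 3 lists (uptake and binding, activation and oxidation, storage and release), 13 were paired with an identifier, 11 besides Cd36 and Slc27a6. Lpl and Fabp4 among them are also on the adipocyte list. In the 23 libraries, the log2 fold changes of these 11 (0.28 to 0.95) were below those of Cd36 and Slc27a6. With all 24 libraries, Fabp4 (1.79) and Pmp2 (1.70) lay above Cd36 (1.44), so this order rests on the right CB of SH rat 34. All 11 could be named only because they stood in the part of the table that is higher in SHR, so their strain values, like those of Cd36 and Slc27a6, are given as a description, with no p, and their direction is no evidence about the pathway. As background only, 7 of the 11 had an adjusted p under 0.05 with SHR higher and 0 with SHR lower, where 10.2% of all genes were higher. Their median log2 fold change was 0.37, against 0.0057 over all genes tested. The way the genes were named fixed both the direction and a median above that of all genes, and it favoured such calls. The calls and shares, here and below, are therefore no test of the lists or of single genes. The remaining genes of the lists, among them Slc27a1, Slc27a4, Acsl1, Cpt1a and Pparg, were not analysed here.

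Among the genes of uptake, Slc43a3, a membrane protein that regulates fatty acid flux, stood at 30.6 ± 2.74 CPM in WKY rats and at 60.4 ± 8.02 CPM in SH rats (log2 fold change 0.95, SE 0.0785). Its log2 fold change was 1.02 over all 24 libraries. Lpl (lipoprotein lipase), which frees fatty acids from circulating triglyceride, had 43.6 ± 3.39 and 56.6 ± 6.86 CPM (0.36, SE 0.0719). Cavin3, a coat protein of caveolae, had a log2 fold change of 0.30, and Apobr, a receptor for apolipoprotein B48, one of 0.37. These 4 were among the 7. The intracellular fatty acid binding proteins were not. Fabp4 had 9.67 ± 3.73 and 16.3 ± 12.7 CPM (0.85, SE 0.390), and Pmp2 had 3.27 ± 1.54 and 5.46 ± 3.90 CPM (0.82, SE 0.500). The errors of the levels are SD over 6 rats in each strain, and both binding proteins spread widely among SH rats.

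In the lists of use and storage, Pdk4, the kinase that turns off pyruvate dehydrogenase when fatty acids are burnt, averaged 19.5 ± 1.15 CPM in WKY rats and 27.98 ± 9.83 CPM in SH rats (log2 fold change 0.44, SE 0.137). Cpt1b, the muscle form of the enzyme that admits fatty acids to mitochondria, and Klf15, a transcription factor of fasting metabolism, each had a log2 fold change of 0.28 and were not among the 7. Ces1d, a carboxylesterase that hydrolyses stored lipid, had 4.06 ± 0.458 and 6.99 ± 2.88 CPM (0.80, SE 0.256). Soat1, which esterifies cholesterol with fatty acids, had a log2 fold change of 0.31. Over all 24 libraries, 6 of the 11 had an adjusted p under 0.05, and Apobr was the one lost.

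**Figure D4:**
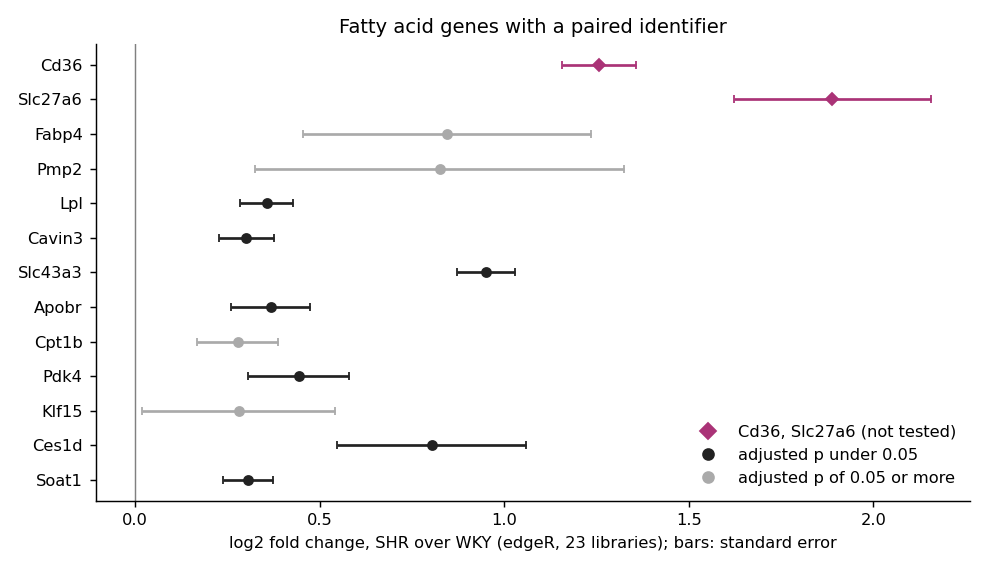
Log2 fold change, SHR over WKY, with its standard error for the 13 fatty acid genes with a paired identifier (23 libraries). All 13 could be named only because they were higher in SHR, so the points are a description and their colours are no test. Black points had an adjusted p under 0.05, grey points did not, and the diamonds of Cd36 (1.26) and Slc27a6 (1.89) are not tested and lie to the right of the other 11 (0.28 to 0.95).

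Among rats of one strain, no relation of either gene passed correction. Rat means were used on the log2 scale, 6 rats a strain, and 30 relations were computed (the genes with each other, and each gene with 7 marker lists). Of these, 0 had an adjusted p under 0.05 and 3 an unadjusted p under 0.05 (exact permutation tests of Pearson's r), and the lowest adjusted p was 0.333. Cd36 and Slc27a6 had r = 0.797 in WKY (Spearman's rho = 0.6, exact permutation p = 0.075 and 0.242, adjusted 0.45 and 0.518), and r = 0.565 without the 2 rats farthest from the median of Slc27a6. In SHR they had r = 0.532 (rho = -0.0286, exact permutation p = 0.306 and 1, adjusted 0.536 and 1). Without the 2 farthest SH rats r was -0.690, so the positive value rests on those rats. With all 24 libraries, which bring in the 2 counts of Slc27a6 under the floor, r was -0.596.

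The 3 relations with an unadjusted p under 0.05 for Pearson's r were all in SH rats. Cd36 had r = 0.862 with the adipocyte list (rho = 0.771, exact permutation p = 0.0333 and 0.103, adjusted 0.333 and 0.514), r = 0.624 without the 2 farthest rats, and r = 0.984 with all 24 libraries. Cd36 had r = 0.887 with the macrophage list (rho = 0.771, exact permutation p = 0.0278 and 0.103, adjusted 0.333 and 0.514), r = 0.478 without the 2 farthest rats, and r = 0.0843 with all 24 libraries. Slc27a6 had r = -0.968 with the striated muscle list (rho = -0.829, exact permutation p = 0.0111 and 0.0583, adjusted 0.333 and 0.514), r = -0.667 without the 2 farthest rats, and r = -0.531 with all 24 libraries. By Spearman's rho alone, Slc27a6 with the endothelial list in SH rats was also under 0.05 (rho = -0.886, exact permutation p = 0.0333, adjusted 0.514; r = -0.485). Over all 24 libraries, Cd36 had r = -0.916 with the glomus list in SH rats (exact permutation p = 0.0444, adjusted 0.521), against -0.560 without that library. The right CB of SH rat 34 thus changes several of these values, and none passed the correction for 30 relations.

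The genes whose levels varied most like each of these were named after the mean of each strain and side had been subtracted, over 23 libraries and on log2(CPM + 1), from the 1272 tested genes with a symbol. Symbols were read only for genes higher in SHR, so unnamed genes may lie closer. For Cd36 those reported here were Opn3 (r = 0.760), Cd22 (0.759), Clic2 (0.722) and Aoc3 (0.704), which ranked 14, 15, 28 and 34 among all 14258 tested genes. For Slc27a6 they were Plbd1 (r = 0.771), Cytip (0.746), St6galnac3 (0.672), Gpr183 (0.661) and Cd74 (0.658), which ranked 1, 3, 20, 26 and 28. Cd36 and Slc27a6 themselves had r = 0.610. These correlations are descriptions over libraries of which most are pairs from one rat, and they share depth and tissue composition.

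The count of Cd36 may carry an uncertainty from genes of like name, whose transcripts were not compared with it. Among the protein-coding genes of RefSeq GRCr8, Cd36l1 lies next to Cd36 on chromosome 4, and Cd36-ps1 is the third gene along. The rows that follow Cd36 in the deposited order carried no symbol here, and the nearest of them held few counts. The first had 0 to 3 counts in WKY libraries and 0 in every SHR library, and the next had 0 to 1 and 0. The third had 1360 to 1944 in WKY and 1030 to 1537 in SHR. A row shortly before Cd36 also had 0 to 4 counts in WKY and 0 in SHR. Whether any of these rows is Cd36l1 or Cd36-ps1 is not known here, and the deposited order was not matched to RefSeq. Any reads that match Cd36 and such a gene equally may have been lost or split when the authors counted them. Slc27a6 lies between Fbn2 and Adamts19 on chromosome 18, where no neighbour shares its name.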

How the data were processed

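Left and right CBs of 12 rats gave 24 polyA libraries (TruSeq stranded). Per the labels, the authors used FastQC, STAR, featureCounts and DESeq2. The deposited values are raw counts by Ensembl identifier. Tool versions, genome build, annotation, and strand and multi-mapping settings are not given in the sources used here. The study's table also holds the authors' fold changes and p-values, which were not used. Counts were tested in R 4.3.3 with edgeR 4.0.16 (TMM, robust quasi-likelihood; genes with a mean normalized count above 10; Benjamini-Hochberg at 0.05). The strain fit had side as a covariate, side within strain had none. Tests of single values were exact, two-sided permutation tests (scipy 1.17.1), with rats as replicates. DESeq2 1.42.0 and limma 3.58.1 (voom) were alternatives, with DESeq2 size factors, no filter, filterByExpr, sides alone, counts summed per rat, replicate blocks, all 24 libraries and leaving out each rat. Scripts were tested on simulated data. Of 276 library pairs none was alike within sampling noise (lowest chi-square per degree of freedom 4.97). Left and right of one rat come from 1 animal, and over 11 rats their deviations from the group means correlated with a median of 0.146 (0.0177 to 0.265). In edgeR's main fits of strain and of interaction they were treated as separate libraries. The RefSeq table of 47357 genes has Ensembl identifiers for 0. The genes named are both members, the paired genes of the fatty acid and marker lists, the 5 most correlated named genes of each member and its 5 neighbouring rows on each side, of which 1 correlated gene is not reported here. The members and lists were chosen with earlier results of these data known.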

Additional observations from a re-analysis of the deposited data

Results flagged for a closer look

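Of 14 groups examined for a sample far from the others, 3 had one, where chance gives about 1 in 20 for a single group. The groups share libraries, and Cd36 in the right CBs of SH rats was flagged both without and with rat 34. The count is therefore no test of an excess. In the right CBs of SH rats, Cd36 was 40.9 CPM in rat 37, against 26.7 to 30.7 CPM in the other 4. With rat 34 added, its library at 83.7 CPM was far from the others in place of rat 37. Slc27a6, averaged over sides, was 6.41 CPM in SH rat 37, the highest of the 6 SH rats, and leaving that rat out gave a strain log2 fold change of 1.69 in place of 1.89.

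The right CB of SH rat 34, which enters no main comparison, held 83.7 CPM of Cd36, above every WKY library. Its glomus marker genes summed to 77.6 CPM. By counts, Fabp4 alone of the 5 adipocyte genes was above the other libraries there (3112). Lpl had fewer counts than they had (336), but 41.6 CPM after scaling. Of the fatty acid lists, Pmp2, Klf15 and Ces1d also had more counts there than in any other library. Slc43a3 had 775 counts, hardly above the 773 of the next library. Apobr and Cpt1b had fewer counts than the others, which after scaling (5.94 and 13.6 CPM) does not show a level below every other library. The part of other cells in the Cd36 value was not tested.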

How the results depend on the processing

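The strain difference of Slc27a6 moved to 1.33 with the left CBs alone and 2.54 with the right alone. The strain difference of Cd36 ran from 1.16 to 1.44 over 23 alternatives. The number of genes higher in SHR was 1459, and it was 764 with all 24 libraries, 641 and 405 with the left and right CBs alone, 812 with the rat number as a replicate block and 819 with the same rats and no block. Rat numbers do not pair the rats of different strains: over 4 shared numbers the correlation ran from -0.260 to 0.0705. That block gave strain log2 fold changes of 1.31 (Cd36) and 1.78 (Slc27a6).

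With the rat as a replicate block, pairing left with right, 1 gene was called between sides in SHR in place of 0. The side differences of Slc27a6 were then 0.79 in WKY and -0.29 in SHR, and those of Cd36 -0.09 and -0.20. Blocking by rat changed no other side or interaction call at an adjusted p of 0.05. The interaction of Slc27a6 with rat as a random block in limma's voom was -1.02. In edgeR's main fits, without a block, the interval of the Slc27a6 side difference in WKY began just above 0, at 0.01. That of its interaction was -2.23 to -0.19, and with a block both included 0. Some fits without a block included 0 as well. In WKY the interval began at -0.0145 with DESeq2 and at -0.052 with no filter. For the interaction it was -2.33 to 0.376 with all 24 libraries. Several fits leaving out a rat also included 0. With DESeq2 size factors or filterByExpr in edgeR both intervals stayed clear of 0. Whether they include 0 therefore does not rest on the block alone. The strain calls over all genes were 2315 with rat as a random block in voom, against 2863. With all 24 libraries the left over right ratio of Cd36 within rats was -0.264 (exact sign-flip p = 0.0356). That of Slc27a6 in SHR reversed to 0.338, and the correlation of the genes over SH rats reversed to -0.596. Both reversals take in the 2 counts of Slc27a6 in the right CB of SH rat 34, under the floor. The cause was not tested.

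Leaving out each rat in turn gave strain differences of 1.16 to 1.32 (Cd36) and 1.69 to 1.96 (Slc27a6), side differences in WKY of -0.15 to -0.01 and 0.59 to 1.09, side differences in SHR of -0.23 to -0.10 and -0.76 to -0.20, and interactions of -0.16 to -0.01 and -1.55 to -0.98. The gene count ran from 1064 to 1432, and the calls by side and interaction stayed at 0.

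Depth limits Slc27a6 in WKY, at 4 to 21 counts a library. Symbols were read for genes higher in SHR only. Build, strand and multi-mapping settings are not given in the sources used here, so any reads shared by Cd36 and genes of like name are uncertain.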
